A study of Mus musculus with 15 samples.

Results

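Heat shock chaperones of the cytosol and the mitochondria were followed across WT and Trem2-/- BV2 cells, each with and without cholesterol loading. Genes were taken by symbol from the 54390 genes counted: the Hspa, Hspb, Hspd, Hspe, Hsph, Dnaja, Dnajb and Dnajc series, the TRiC/CCT subunits with Tcp1, and both cytosolic HSP90 genes. Of 96 matching genes, 4 chaperones of the ER (Hspa5, Dnajb9, Dnajb11 and Dnajc3) and 15 pseudogenes were set aside, which left 77. These were 10 HSP70, 3 HSP110, 2 HSP90, 3 HSP60 and HSP10, 8 small HSP, 4 DNAJA, 11 DNAJB, 27 DNAJC and 9 TRiC/CCT genes. The symbols do not fully sort by compartment: 9 of the 77 encode proteins of the ER (Hspa13, Dnajb12, Dnajb14, Dnajc1, Dnajc10, Dnajc14, Dnajc16, Dnajc18 and Dnajc25). Another 8 were grouped here as mitochondrial (Hspa9, Hspd1, Hspe1, Dnaja3, Dnajc11, Dnajc15, Dnajc19 and Dnajc30), a grouping that may not be complete.

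Chaperones keep newly made or damaged proteins from aggregating. HSP70 binds exposed stretches of a client in cycles of ATP hydrolysis that J domain proteins (DNAJ) start and that HSP110 and other exchange factors reset, and many clients then pass to HSP90 or to the barrel-shaped TRiC/CCT complex, which folds actin and tubulin. HSP60 and its lid HSP10 fold proteins in the mitochondrial matrix, and heat shock factor 1 (HSF1) raises the inducible members when unfolded proteins build up.

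BV2 is an immortalized mouse microglial line, used here as a model of macrophages. The 15 RNA-seq libraries comprised 4 of WT non-foamy cells, 4 of WT foamy cells, 3 of Trem2-/- non-foamy cells and 4 of Trem2-/- foamy cells. Foamy cells were given soluble cholesterol at 20 μg/ml overnight, and non-foamy cells were kept in media alone. According to the methods, the knockout was made with a CRISPR guide in BV2 cells that carry Cas9, themselves grown from 1 clone, and knockout clones were isolated by limiting dilution. Whether the WT cells carry Cas9, and how many knockout clones gave these libraries, is not given in the sources used here, so the loss of Trem2 cannot be told apart from other differences between clones. Nothing in the labels says that replicates were separate cultures, so p-values measure the spread between these libraries, which may be technical. In bulk RNA, less RNA per cell and fewer cells that express a gene cannot be told apart either.

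Libraries held 23538963 to 41683825 counted reads, and the 77 genes took 1.70 to 2.03% of them. The Trem2 transcript stood at 327 to 415 CPM (counts scaled to equal library size) in the 8 WT libraries and at 214 to 232 in the 7 Trem2-/- libraries, so its transcript was lower but still counted. By their median over the 15 libraries, 8 of 10 microglial markers were over 1 CPM, while Cx3cr1 and Tmem119 were under it. Their summed level was 3015 to 3697 CPM in WT and 4232 to 4522 CPM in Trem2-/- libraries, and ribosomal protein genes took 12.5 to 15.6% and 14.9 to 16.2% of counts; the part of either in the results was not tested. Markers of astrocytes, neurons and fibroblasts, 4 of each, summed to at most 0.190 CPM. The 4 oligodendrocyte and 4 endothelial markers summed to 0.817 to 2.57 CPM and, for the endothelial ones, to 4.64 to 9.88 CPM in WT and 1.91 to 4.42 CPM in Trem2-/- libraries. WT non-foamy replicate 3 and WT foamy replicate 1 stood apart from their groups (chi-square per gene of 29.7 to 38.5 and 18.6 to 43.8 against their partners, with 6.21 to 15.2 among the other libraries of those groups). Trem2-/- foamy replicate 4 was at 14.95 to 23.6 against its partners, which were at 6.64 to 10.5 among themselves. For these libraries, results that rest on them are also given without them.

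Sequences at the promoters are shown first, because heat shock elements are what HSF1 binds. Such elements are runs of GAA and its complement TTC in alternation. RefSeq windows (GRCm38.p6) of 300 bases around the start site were found for 61 of the 77 genes, and were not found for Hspa8, Hsp90aa1 or Hsp90ab1. An element of 2 units (GAANNTTC or TTCNNGAA; each reads the same on both strands) stood in 12 of the 48 tested genes with a window (25%), against 17.0% of all genes and 15.1% of all windows. An element of 3 units (GAANNTTCNNGAA or TTCNNGAANNTTC, which contains the shorter ones) stood in 4 of the 48 (8.33%), against 0.662% of all genes and 0.603% of all windows. Those 4 were Hspd1, Hspe1, Hsph1 and Dnajb6. Stretches of 30 bases are printed 5′ to 3′ on the gene's strand with the whole run of alternating units in capitals, for genes with 3 units and for core genes with 2. The run at Hspe1 has 18 bases and goes on past the 3 units searched for.
Hspe1, chr1:55088053-55088082, plus strand: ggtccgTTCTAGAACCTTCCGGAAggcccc
Hsph1, chr5:149636279-149636308, minus strand: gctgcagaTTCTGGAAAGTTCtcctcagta
Dnajb6, chr5:29735844-29735873, plus strand: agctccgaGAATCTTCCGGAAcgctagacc
Dnaja1, chr4:40722333-40722362, plus strand: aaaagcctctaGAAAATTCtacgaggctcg
Cct2, chr10:117063399-117063428, minus strand: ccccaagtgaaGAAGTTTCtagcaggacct
Cct5, chr15:31601862-31601891, minus strand: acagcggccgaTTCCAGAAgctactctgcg
Hspa1a, chr17:34972242-34972271, minus strand: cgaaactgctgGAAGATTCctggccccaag
Hspa1b, chr17:34959324-34959353, minus strand: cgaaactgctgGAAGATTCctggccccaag
Hspe1 and Hspd1 are read in opposite directions. Hspd1 has 2 RefSeq windows, and the Hspe1 stretch lies between the start site of Hspe1 and the nearer one of Hspd1, with 215 bases between these sites, so the same element is also in that window of Hspd1. By the GENCODE gene model of Hspd1 the stretch is inside that gene. Its run in capitals begins 89 bases before the Hspe1 start site. Read on the other strand, the run begins 144 bases before the Hspd1 start site used. A match describes these letters and is not evidence that HSF1 bound there.

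Without cholesterol, WT BV2 cells made chaperone transcripts over a wide range, and the stress-inducible HSP70 genes were close to silent. Per exon length, Hsp90ab1, the constitutive cytosolic HSP90, led at 1071 CPM per kb of exon, followed by Hspa8, the constitutive cytosolic HSP70, at 932, Hsp90aa1, the more inducible HSP90, at 575, and Hspd1, which encodes HSP60, at 547. These 4 lay between the 99.2 and the 99.6 percentile of tested genes. Hspa8, Hsp90ab1 and Hsp90aa1 alone held 48.9 to 54.8% of the CPM of the 77 genes in every library. By contrast, Hspa1a, which encodes inducible HSP70, had 0 to 2 reads per library and 4 in all 15, and its copy Hspa1b had 0 to 2 and 8 in all. Of the 50-base stretches of Hspa1a, 58.8% are also in Hspa1b, and how reads that match both were counted is not given in the sources used here.

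**Figure D1:**
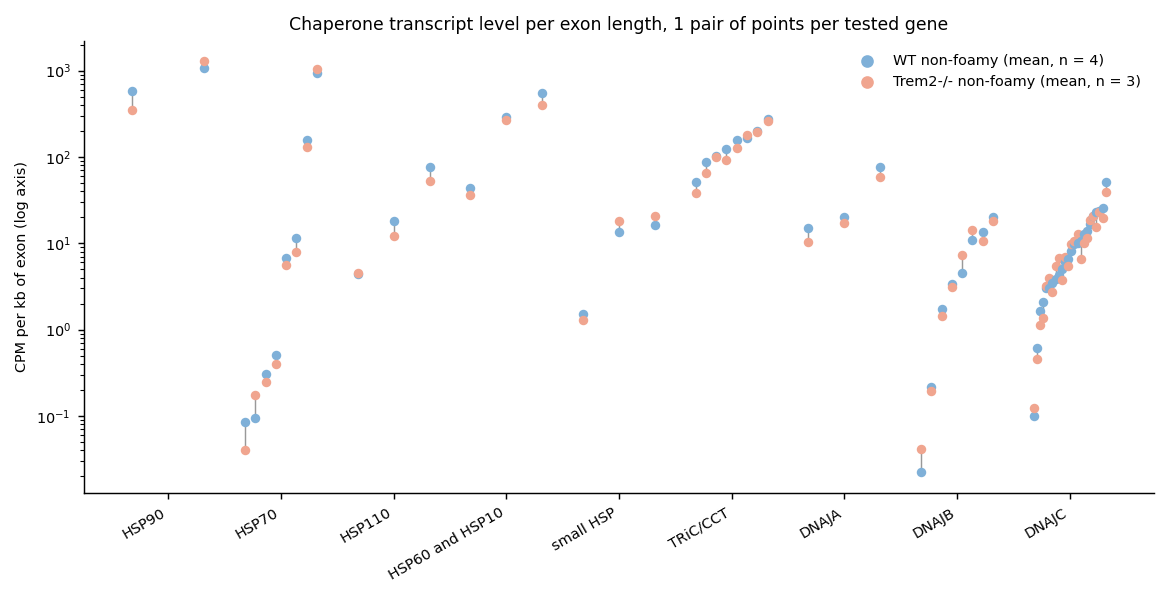
CPM per kb of exon (log axis) in non-foamy cells for the 62 tested chaperone genes by family, with 1 pair of points per gene: the WT mean (n = 4) and the Trem2-/- mean (n = 3), joined by a line. HSP90 and HSP70 genes reach the highest values, up to 1071 in WT for Hsp90ab1, followed by 547 for Hspd1 in the HSP60 and HSP10 family.

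Among the small HSPs, the inducible Hspb1 (HSP25 in mouse) had 0 to 4 reads per library, and Hspb8, Hspb2 and Hspb3 had 0 in all 15. A count of 0 allows up to 3 reads, or 0.0669 to 0.132 CPM depending on the library, which covers counting error only. In all, 6 of the 77 genes were at 0 in every library, another 9 had too few reads to be tested, and 62 were tested. The 9 were Hspa1a, Hspa1b, Hspb1, Hspb9, Dnaja4, Dnajb3, Dnajb7, Dnajc6 and Cct6b (at most 10 reads in a library for the last). Of the 62, 5 were under 1 CPM in every group and 26 were over 100 CPM in at least 1 group.

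Most chaperone transcripts that differed between the genotypes were lower in Trem2-/- cells. In media alone, 40 of the 62 tested genes differed at an adjusted p under 0.05 (edgeR), 13 higher and 27 lower, where 43.6% of all 14237 tested genes differed (21% higher, 22.6% lower). The median log2 fold change was −0.24 over the 62 and 0.02 over all tested genes. With cholesterol, 28 differed, 11 higher and 17 lower, where 30.2% of all tested genes differed (14.3% higher, 15.9% lower), and the medians were −0.07 and 0.00. Trem2-/- and WT libraries did not overlap for 38 of the 62 genes without cholesterol and for 27 with it, against 46.1% and 28.8% of all tested genes.

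The 2 genotype comparisons use different libraries of the same cells. Of the chaperone genes, 26 differed in both, 65% of those called without cholesterol and 92.9% of those called with it, and for all tested genes the shares were 57.2% and 82.7%. All 26 kept their direction, 9 higher and 17 lower. Without WT non-foamy replicate 3 the count in media alone was 35 (13 higher, 22 lower), and without WT foamy replicate 1 the count with cholesterol was 27 (10 higher, 17 lower). Without Trem2-/- foamy replicate 4 the latter was 23 (10 higher, 13 lower). With scaling by total counts alone, the median of all tested genes went from 0.02 to −0.13 in media alone and from 0.00 to −0.13 in foamy cells, and then 7 chaperone genes were higher and 36 lower in media alone, while in foamy cells 5 were higher and 29 lower.

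**Figure D2:**
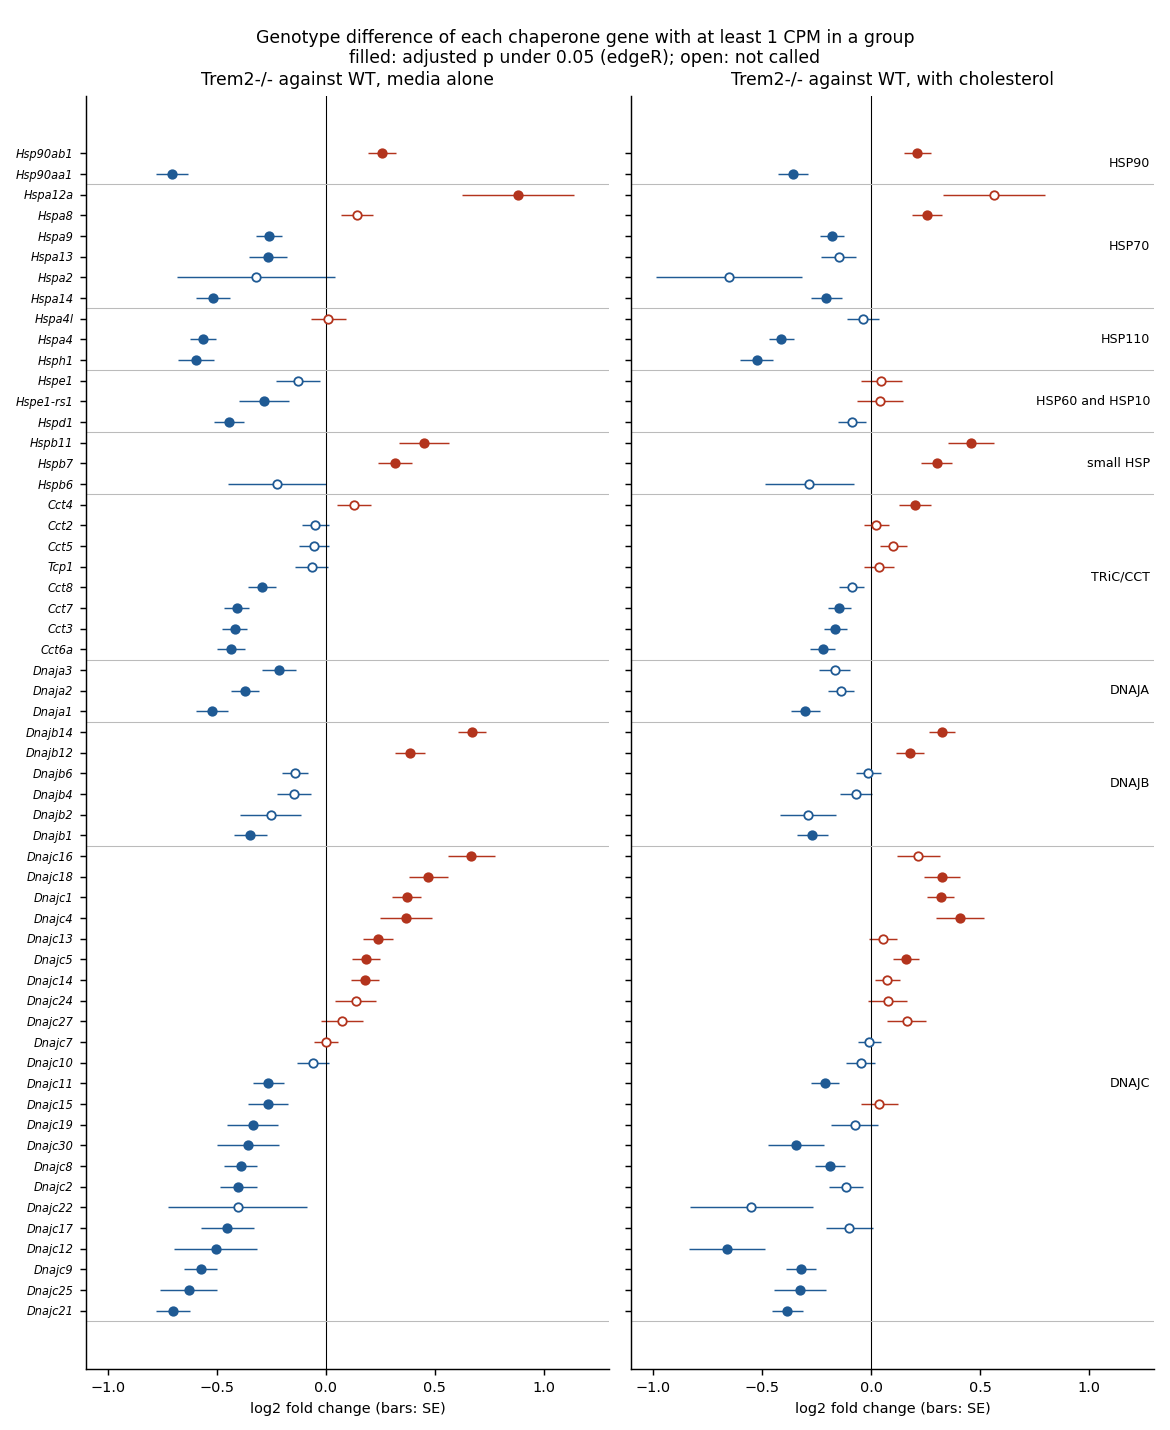
Log2 fold change of Trem2-/- against WT cells (points) with its standard error (bars) for the 57 tested chaperone genes that reach 1 CPM in a group, by family, in media alone (left) and with cholesterol (right). Filled points passed adjusted p under 0.05, with red higher and blue lower in Trem2-/- cells; HSP90, DNAJB and DNAJC each hold filled points on both sides of 0.

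The cytosolic HSP90 genes moved in opposite directions. Hsp90aa1 (chromosome 12, 110690605 to 110702728, minus strand, GRCm38) stood at 2362, 2152, 2349 and 2178 CPM in WT non-foamy and at 1434, 1428 and 1297 CPM in Trem2-/- non-foamy libraries. In foamy cells it stood at 1772, 1879, 2015 and 2042 CPM in WT and at 1552, 1403, 1449 and 1614 CPM in Trem2-/- libraries. All 7 Trem2-/- libraries were thus under all 8 WT libraries. On the log2 scale Trem2-/- cells differed from WT by −0.71 (s.e. 0.07, adjusted p = 6.48e-08) in media alone and by −0.36 in foamy cells (s.e. 0.07, adjusted p = 0.000301).

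Hsp90ab1 (chromosome 17, 45567775 to 45573271) was higher in Trem2-/- cells. It stood at 3103, 3378, 3188 and 3177 CPM in WT non-foamy and at 3838, 3867 and 3816 CPM in Trem2-/- non-foamy libraries. In foamy cells the levels were 3202, 3584, 3286 and 3260 CPM in WT and 3962, 3881, 3678 and 3932 CPM in Trem2-/- libraries, again with no overlap. The log2 fold changes were 0.26 (s.e. 0.06, adjusted p = 0.00243) and, in foamy cells, 0.21 (s.e. 0.06, adjusted p = 0.00959). With total counts alone they were 0.12 and 0.08, with adjusted p of 0.0890 and 0.216, so the direction held and the calls did not.

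The ratio of Hsp90aa1 to Hsp90ab1 within a library does not depend on that scaling. It was 0.637 to 0.761 in WT non-foamy, 0.524 to 0.626 in WT foamy, 0.340 to 0.374 in Trem2-/- non-foamy and 0.361 to 0.411 in Trem2-/- foamy libraries. The summed level of the 2 genes changed less: its means were 5472 ± 84.4 (SD, n = 4), 5260 ± 205 (n = 4), 5227 ± 99.0 (n = 3) and 5368 ± 198 CPM (n = 4) in the same order. For Hsp90aa1, 41.8% of the 50-base stretches are also in the pseudogene Gm12346, and how such reads were counted is not given in the sources used here.

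**Figure D3:**
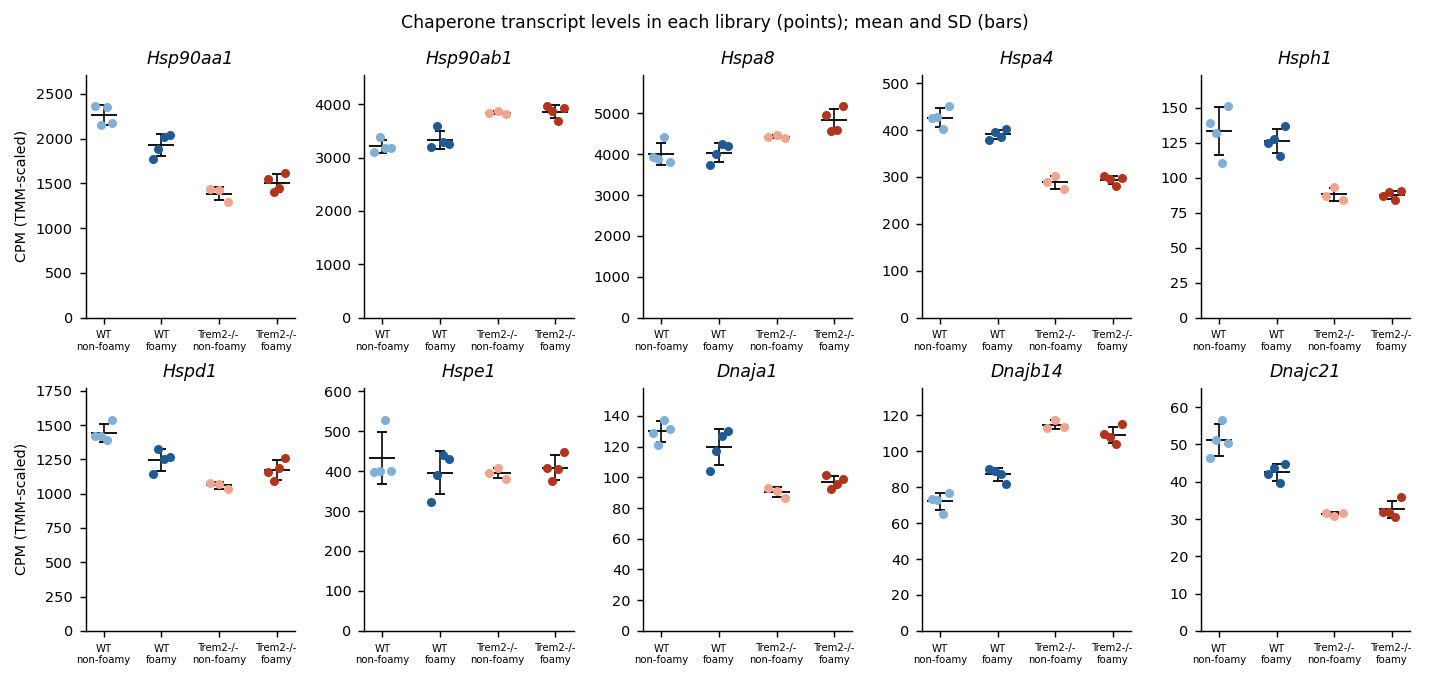
TMM-scaled CPM of 10 chaperone genes in each of the 15 libraries (points), with the group mean (line) and SD (bars), on linear axes from 0. Hsp90aa1, Hspa4, Hsph1, Dnaja1 and Dnajc21 lie lower in both Trem2-/- groups and Hsp90ab1 and Dnajb14 lie higher, while for Hspe1 WT non-foamy replicate 3 stands at 529 CPM, above all other libraries.

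Of the 8 tested HSP70 genes, 1 was higher and 3 were lower in Trem2-/- non-foamy cells. In foamy cells 1 was higher and 2 were lower. These shares, 50% and 37.5%, are near the 43.6% and 30.2% of all tested genes. Hspa8 (chromosome 9, 40800984 to 40810087) stood at 3942, 3884, 4412 and 3805 CPM in WT non-foamy and at 4417, 4463 and 4400 CPM in Trem2-/- non-foamy libraries, so WT replicate 3 reached the Trem2-/- levels. In foamy cells it stood at 3725, 3994, 4245 and 4194 CPM in WT and at 4957, 4568, 4603 and 5174 CPM in Trem2-/- libraries, without overlap. The log2 fold change was 0.14 in non-foamy cells (s.e. 0.07, adjusted p = 0.122) and 0.26 in foamy cells (s.e. 0.07, adjusted p = 0.00611). Without WT non-foamy replicate 3 the former was 0.19 (adjusted p = 0.0188), and with total counts alone it was 0.01. Of the 50-base stretches of Hspa8, 34.6% are shared with the gene model Gm15459.

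The transcript of Hspa9, which encodes mitochondrial HSP70, went the other way. It stood at 683, 691, 644 and 679 CPM in WT non-foamy and at 555, 577 and 557 CPM in Trem2-/- non-foamy libraries, with no overlap (log2 difference −0.26, s.e. 0.06, adjusted p = 0.000808). In foamy cells it stood at 608, 669, 635 and 644 CPM in WT and at 572, 557, 555 and 575 CPM in Trem2-/- libraries (−0.18, s.e. 0.05, adjusted p = 0.0135; 0.0528 without WT foamy replicate 2). Hspa14, an HSP70 that works at the ribosome, had a mean of 46.2 CPM in WT and 32.3 CPM in Trem2-/- non-foamy cells (−0.52, s.e. 0.08, adjusted p = 8.87e-06). In foamy cells it had −0.20 (adjusted p = 0.0307). That call was lost without WT foamy replicate 3 or 4 or Trem2-/- foamy replicate 2, with no filter and with only the groups compared (adjusted p up to 0.122). Hspa12a, a distant relative of HSP70, had the largest increase among called chaperone genes at 0.88 (s.e. 0.26, adjusted p = 0.00764), at means of only 0.879 CPM in WT and 1.61 CPM in Trem2-/- cells. Its difference with cholesterol was 0.56 (adjusted p = 0.0746).

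The HSP110 genes, whose proteins help HSP70 exchange ADP for ATP, were lower in 2 of 3 cases and in both conditions. That is 66.7% called in each, against 43.6% and 30.2% of all tested genes. Hsph1 (chromosome 5, 149614287 to 149636376) stood at 139, 132, 110 and 151 CPM in WT non-foamy, 125, 127, 115 and 137 in WT foamy, 86.9, 93.2 and 84.3 in Trem2-/- non-foamy and 87.1, 89.5, 84.0 and 90.1 in Trem2-/- foamy libraries. Hspa4 (chromosome 11, 53259814 to 53300457) stood at 425, 427, 402 and 451 CPM in WT non-foamy, 379, 397, 385 and 401 in WT foamy, 290, 301 and 275 in Trem2-/- non-foamy and 302, 296, 281 and 297 in Trem2-/- foamy libraries. For both genes every Trem2-/- library was under every WT library. The log2 fold changes without and with cholesterol were −0.60 and −0.52 for Hsph1 (s.e. 0.08 for each, adjusted p = 4.10e-06 and 1.72e-05). For Hspa4 they were −0.56 and −0.41 (s.e. 0.06 and 0.06, adjusted p = 9.19e-08 and 6.12e-06). The third gene, Hspa4l, had group means between 51.2 and 53.0 CPM (log2 fold change 0.01 and −0.04, adjusted p = 0.919 and 0.749).

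Of the transcripts for these proteins of the mitochondrial matrix, that of HSP60 (Hspd1) was lower in Trem2-/- non-foamy cells. That of HSP10 (Hspe1), from the neighbouring gene, did not pass the test. Hspd1 (chromosome 1, 55077835 to 55088243, minus strand) stood at 1420, 1423, 1394 and 1540 CPM in WT non-foamy and at 1079, 1070 and 1034 CPM in Trem2-/- non-foamy libraries without overlap (−0.45 on the log2 scale, s.e. 0.07, adjusted p = 1.47e-05). In foamy cells its levels overlapped, at 1141, 1328, 1250 and 1267 CPM in WT and at 1157, 1090, 1189 and 1259 CPM in Trem2-/- libraries (−0.09, s.e. 0.06, adjusted p = 0.325). With total counts alone this difference was −0.22 (adjusted p = 0.00518).

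Hspe1 (chromosome 1, 55088132 to 55091307, plus strand) stood at 398, 401, 529 and 400 CPM in WT non-foamy, 321, 390, 441 and 431 in WT foamy, 396, 407 and 381 in Trem2-/- non-foamy and 408, 374, 404 and 448 in Trem2-/- foamy libraries. The groups overlapped, with log2 fold changes of −0.13 (adjusted p = 0.331) and 0.05 (adjusted p = 0.756). The first was −0.02 without WT non-foamy replicate 3 and −0.26 with total counts alone (adjusted p = 0.00786). That the 2 genes differ from each other was not tested. The ratio of Hspd1 to Hspe1 was 2.64 to 3.86 in WT non-foamy and 2.63 to 2.73 in Trem2-/- non-foamy libraries, with the lowest WT value in the same replicate 3. For Hspd1, 38.0% of 50-base stretches are shared with a pseudogene, Hspd1-ps3.

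Of the 8 members grouped as mitochondrial, 7 were lower in Trem2-/- cells without cholesterol and 3 with it, and none was higher. Median log2 fold changes were −0.26 and −0.13. The shares called, 87.5% and 37.5%, stand against 43.6% and 30.2% of all tested genes, so the second is near that of all genes. The 3 with cholesterol were Hspa9, Dnajc11 and Dnajc30, and 1 was left without Trem2-/- foamy replicate 4 (Hspa9) and without WT foamy replicate 2 (Dnajc11). Besides Hspd1 and Hspa9, the 7 without cholesterol included Dnajc15 (−0.27, adjusted p = 0.0238) and Dnajc19 (−0.34, adjusted p = 0.0246), which encode J proteins of the import motor. Another was Dnajc11 (−0.26, adjusted p = 0.00386), a J protein of the mitochondrial membranes. The calls of Dnajc15 and Dnajc19 were lost without WT non-foamy replicate 3 (−0.20 and −0.18, adjusted p = 0.0726 and 0.106), without Trem2-/- non-foamy replicate 3, and without Trem2-/- non-foamy replicate 1 for Dnajc15 or 2 for Dnajc19. Those of Dnaja3 and Dnajc30 were each lost in 5 of 7 such fits (adjusted p up to 0.132 and 0.177), among them those without Trem2-/- non-foamy replicate 2 or 3 and WT non-foamy replicate 2 or 4, then WT non-foamy replicate 1 for Dnaja3 and 3 for Dnajc30.

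TRiC/CCT rings hold their different subunits in equal numbers. The log2 fold changes of the subunit transcripts ran from −0.43 to 0.13 without cholesterol. That subunits differ from each other was not tested. The median log2 fold change of the 8 tested was −0.18 without cholesterol and −0.03 with it. Of the 8 tested subunits, Cct3, Cct6a and Cct7 were lower in Trem2-/- cells in both conditions, and Cct8 without cholesterol. With Cct4, which was higher with cholesterol, 50% were called in each condition. All tested genes had 43.6% and 30.2%, so the share without cholesterol is near that of all genes. Relative to the WT non-foamy mean, the Trem2-/- non-foamy means were 74.9% ± 1.01 for Cct3, 74.0% ± 2.84 for Cct6a, 75.3% ± 0.649 for Cct7 and 81.5% ± 1.76 for Cct8 (SD, n = 3). The corresponding log2 fold changes were −0.42, −0.43, −0.41 and −0.30, with adjusted p of 3.28e-06, 8.38e-06, 4.22e-06 and 0.000652. With cholesterol the first 3 were −0.16, −0.22 and −0.15, with adjusted p of 0.0220, 0.00619 and 0.0407. With cholesterol, Cct7 lost its call in 7 of 8 fits that left out 1 library, all but that without WT foamy replicate 1 (values from −0.18 to −0.11), and Cct3 lost it without Trem2-/- foamy replicate 2 or WT foamy replicate 4 (adjusted p up to 0.0686).

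Tcp1, Cct2, Cct4 and Cct5 did not pass the test without cholesterol. Tcp1, the first subunit, stood at 523, 489, 562 and 503 CPM in WT non-foamy, 436, 485, 530 and 516 in WT foamy, 498, 510 and 480 in Trem2-/- non-foamy and 500, 470, 495 and 552 in Trem2-/- foamy libraries. Cct2 stood at 500, 495, 546 and 493 CPM in WT non-foamy, 451, 504, 505 and 505 in WT foamy, 491, 500 and 485 in Trem2-/- non-foamy and 513, 478, 487 and 523 in Trem2-/- foamy libraries. The groups overlapped throughout for Tcp1, and for Cct2 all 15 libraries lay within 451 to 546 CPM.

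Cct5 stood at 757, 704, 838 and 718 CPM in WT non-foamy, 635, 682, 707 and 740 in WT foamy, 737, 722 and 721 in Trem2-/- non-foamy and 740, 722, 729 and 777 in Trem2-/- foamy libraries. Log2 fold changes of Tcp1, Cct2 and Cct5 lay between −0.07 and 0.10 in both genotype comparisons. With total counts alone they were −0.20, −0.19 and −0.19 without cholesterol and passed (adjusted p = 0.00217, 0.000942 and 0.00164), so whether these subunits were lower at all depends on the scaling, while the gaps between the subunits do not. Of the exons of Tcp1, 14.2% overlap genes on the other strand, and of those of Cct6a 12.5% do. Cct4 was higher in Trem2-/- foamy cells (0.20, s.e. 0.07, adjusted p = 0.0380), a call lost with total counts alone (0.07) and without WT foamy replicate 1 (0.15, adjusted p = 0.121), 2 or 4 or Trem2-/- foamy replicate 1 or 4. Without cholesterol the Cct4 value was 0.13 (adjusted p = 0.194), 0.18 without WT non-foamy replicate 3 (adjusted p = 0.0399) and −0.01 with total counts alone.

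**Figure D4:**
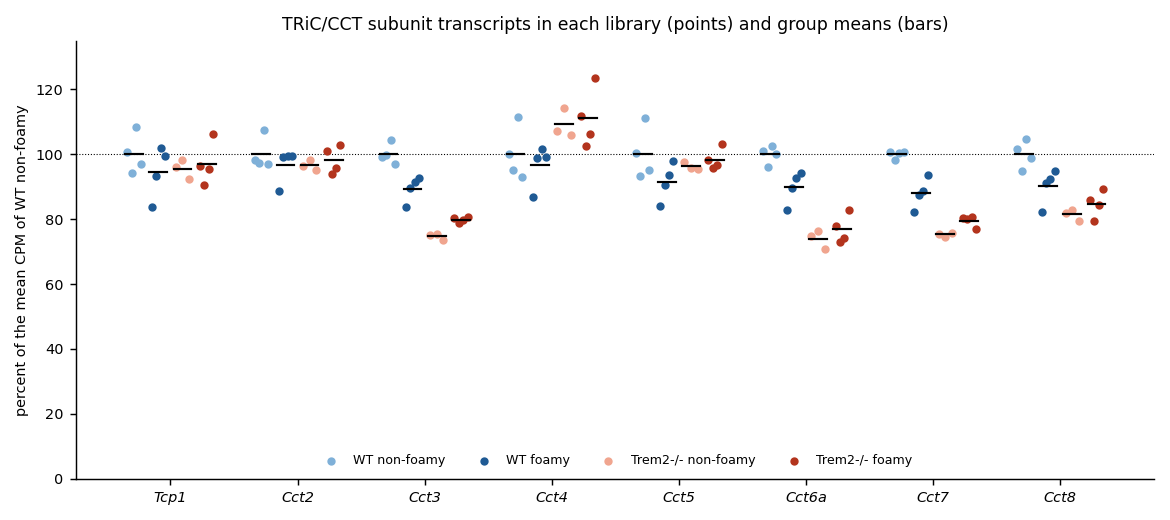
Level of each tested TRiC/CCT subunit in each library (points) as a percentage of the mean CPM of the WT non-foamy group, with group means as bars and the dotted line at 100%. Trem2-/- non-foamy means are 74.0 to 81.5% for Cct3, Cct6a, Cct7 and Cct8, and 95.5 to 109% for Tcp1, Cct2, Cct4 and Cct5.

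J domain proteins deliver clients to HSP70 and set where it works. Of the 35 tested, 9 were higher and 15 lower in Trem2-/- cells in media alone. In foamy cells 6 were higher and 9 lower (medians −0.15 without and −0.07 with cholesterol). Shares called were 68.6% and 42.9%, against 43.6% and 30.2% of all tested genes. Dnaja1, a general partner in the cytosol (chromosome 4, 40722150 to 40737149), stood at 129, 121, 138 and 132 CPM in WT non-foamy, 104, 117, 127 and 130 in WT foamy, 93.2, 91.1 and 86.8 in Trem2-/- non-foamy and 101, 92.4, 95.9 and 99.2 in Trem2-/- foamy libraries. Every Trem2-/- library was under every WT library (−0.52 and −0.30, s.e. 0.07 for each, adjusted p = 4.03e-06 and 0.00150).

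Dnajb1, the heat-inducible HSP40, stood at 43.3, 45.1, 43.3 and 40.7 CPM in WT non-foamy, 39.1, 43, 36.3 and 37.8 in WT foamy, 32, 35.1 and 34.4 in Trem2-/- non-foamy and 34.6, 32.9, 29.9 and 32.2 in Trem2-/- foamy libraries. It too showed no overlap between the genotypes (−0.35 and −0.27, s.e. 0.08 and 0.07, adjusted p = 0.000641 and 0.00498). Dnaja2, another general partner, was lower without cholesterol (−0.37, adjusted p = 6.99e-05) and did not pass with it (−0.14, adjusted p = 0.0920). Dnajb6, which holds back aggregation, did not pass without cholesterol (−0.14, adjusted p = 0.0629). It did pass with DESeq2 and with total counts alone (−0.28, adjusted p = 0.000502 for the latter).

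Transcripts of J proteins of the ER were mostly higher in Trem2-/- cells in media alone. Of the 9 ER members (8 J proteins and Hspa13), 6 were higher and 2 lower in media alone. With cholesterol 4 were higher and 1 was lower (medians 0.37 without and 0.18 with it). Shares called were 88.9% and 55.6%, against 43.6% and 30.2% of all tested genes. Dnajb14 (chromosome 3, 137867675 to 137916557), an ER membrane J protein that helps extract misfolded proteins for degradation, stood at 73.5, 72.8, 65.2 and 76.9 CPM in WT non-foamy, 90.2, 89.1, 87.2 and 82 in WT foamy, 113, 118 and 113 in Trem2-/- non-foamy and 109, 108, 104 and 115 in Trem2-/- foamy libraries. The 4 groups fell into 3 bands, WT non-foamy lowest, WT foamy next and both Trem2-/- groups on top. The genotype difference was 0.67 (s.e. 0.06, adjusted p = 1.74e-08) in media alone and was smaller with cholesterol, at 0.32 (s.e. 0.06, adjusted p = 0.000222).

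Dnajc16 showed a like size without cholesterol, with 29.1, 28.8, 22.6 and 30.5 CPM in WT and 50.5, 36.6 and 45.4 CPM in Trem2-/- libraries (0.67, s.e. 0.11, adjusted p = 2.58e-05), and 0.22 (adjusted p = 0.107) with it; without WT foamy replicate 1 the latter was 0.29 (adjusted p = 0.0406). Dnajb12, the close relative of Dnajb14, was higher by 0.39 (adjusted p = 0.000103) and 0.18 (adjusted p = 0.0401), the latter lost without any 1 of the WT foamy libraries (adjusted p = 0.0708 without replicate 1) or without Trem2-/- foamy replicate 1 or 2, and at 0.05 with total counts alone. Dnajc18, also of the ER membrane, was higher by 0.47 and 0.32 (s.e. 0.09 and 0.08, adjusted p = 0.000177 and 0.00471; 0.20 and 0.0839 for the latter with total counts alone), and Dnajc1 by 0.37 and 0.32 (adjusted p = 7.50e-05 and 0.000341). Dnajc14 was higher by 0.18 (adjusted p = 0.0240) in media alone. That call was lost without WT non-foamy replicate 3 or Trem2-/- non-foamy replicate 1, with total counts alone and with no filter (adjusted p up to 0.742). The exceptions were Dnajc25, at 6.14 ± 0.530 CPM in Trem2-/- against 9.50 ± 0.559 in WT non-foamy cells (−0.63, s.e. 0.13, adjusted p = 0.000445), and Hspa13 (−0.27, adjusted p = 0.0177, and 0.0611 and 0.0637 without Trem2-/- non-foamy replicate 1 or 2). With cholesterol Dnajc25 had −0.33 (adjusted p = 0.0424). It lost this call without WT or Trem2-/- foamy replicate 1, 3 or 4, with no filter and with only the groups compared (adjusted p up to 0.139).

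Of the 24 tested DNAJC genes, 7 were higher and 11 lower in media alone, and 4 were higher and 7 lower in foamy cells. That is 75% and 45.8% called, against 43.6% and 30.2% of all tested genes. Dnajc21 (chromosome 15, 10446756 to 10470516), a factor of ribosome assembly, stood at 46.3, 51.3, 56.7 and 50.4 CPM in WT non-foamy, 42, 43.8, 39.6 and 44.7 in WT foamy, 31.7, 30.8 and 31.7 in Trem2-/- non-foamy and 31.9, 32, 30.4 and 35.9 in Trem2-/- foamy libraries. Both WT groups were above both Trem2-/- groups (−0.70 and −0.39, s.e. 0.08 and 0.07, adjusted p = 1.56e-07 and 0.000246). Dnajc9, a chaperone of histones H3 and H4, had a mean of 54.2 CPM in WT and 36.4 CPM in Trem2-/- non-foamy cells (−0.57, s.e. 0.08, adjusted p = 1.86e-06) and was also lower with cholesterol (−0.32, adjusted p = 0.00118). Dnajc2, the ribosome-bound partner of Hspa14, was lower without cholesterol (−0.40, adjusted p = 0.000479) and did not pass with it (−0.12, adjusted p = 0.280).

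At low levels, Dnajc12, a partner of aromatic amino acid hydroxylases, had the largest decrease in foamy cells among called chaperone genes of at least 1 CPM, at 4.78 ± 0.887 CPM in Trem2-/- against 7.56 ± 1.07 in WT (−0.66, s.e. 0.17, adjusted p = 0.00591). Dnajc4 was among the 5 largest increases there, at 15.4 ± 1.08 against 11.6 ± 0.884 CPM (0.41, s.e. 0.11, adjusted p = 0.00712).

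Of the 3 small HSPs with enough reads, 2 were higher in Trem2-/- cells in both conditions (66.7% called in each, against 43.6% and 30.2% of all tested genes). Hspb11, which is also the transport protein IFT25 of cilia, stood at 25.3, 26.8, 33.6 and 25.1 CPM in WT non-foamy and at 38.6, 37.8 and 36.8 in Trem2-/- non-foamy libraries (0.45, s.e. 0.11, adjusted p = 0.00269). In foamy cells it had the largest increase among called chaperone genes (0.46, s.e. 0.11, adjusted p = 0.00217). Hspb7, best known from muscle, was higher by 0.32 (adjusted p = 0.00167) and 0.30 (adjusted p = 0.00243), and with total counts alone by 0.18 and 0.17 (adjusted p = 0.0934 and 0.0908). Hspb6 had values of −0.23 and −0.28 and did not pass (adjusted p = 0.443 and 0.321).

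Cholesterol moved few chaperone transcripts past the threshold in WT cells and none in Trem2-/- cells. In WT cells 2 of the 62 genes passed, 1 higher and 1 lower in foamy cells, where 2.8% of all tested genes did (1.66% higher, 1.14% lower), and 15 had an unadjusted p under 0.05. Dnajb14 rose by 0.27 (s.e. 0.06, adjusted p = 0.0137), and all 4 WT foamy libraries were above all 4 WT non-foamy ones. Dnajc21 fell by 0.27 on the log2 scale (log2 fold change −0.27, s.e. 0.07, adjusted p = 0.0423). Both calls rested on single libraries: that of Dnajb14 was lost without WT foamy replicate 2 (0.26, adjusted p = 0.0609) and with total counts alone (0.27, adjusted p = 0.0550), and that of Dnajc21 without WT foamy replicate 1, 2 or 3 or WT non-foamy replicate 2, 3 or 4 (adjusted p from 0.0806 to 0.0965).

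The median response of the 62 genes in WT cells was −0.08, beside 0.01 over all tested genes. WT libraries with and without cholesterol did not overlap for 12 of the 62, a larger share than the 9.71% of all tested genes. Hsp90aa1 had −0.23 (s.e. 0.07, adjusted p = 0.0662) and Hspd1 −0.21 (s.e. 0.06, adjusted p = 0.0702; 0.0433 without WT non-foamy replicate 3 and 0.198 without WT foamy replicate 1). All 8 tested TRiC/CCT subunits had negative values, from −0.19 for Cct7 (adjusted p = 0.0581) to −0.05, and none passed. Under the alternatives, Hsp90aa1, Hspd1, Cct3 and Cct7 each passed with DESeq2 and with total counts alone. With only the groups compared, 0 of the 62 passed. WT foamy replicate 1, which stood apart, was the lowest of the 4 foamy libraries for each of the 8 subunits.

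In Trem2-/- cells no chaperone gene passed by edgeR or DESeq2, where 0.14% of all tested genes passed by edgeR (0.105% higher, 0.0351% lower), and 3 had an unadjusted p under 0.05 (edgeR). Libraries did not overlap for 8 of the 62, against 9.26% of all tested genes. The median was 0.01, with 0.00 over all tested genes. The largest value among genes over 100 CPM was 0.15, for Hspd1 (s.e. 0.07, adjusted p = 0.772), and all 8 TRiC/CCT subunits had positive values, up to 0.09 for Cct3.

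**Figure D5:**
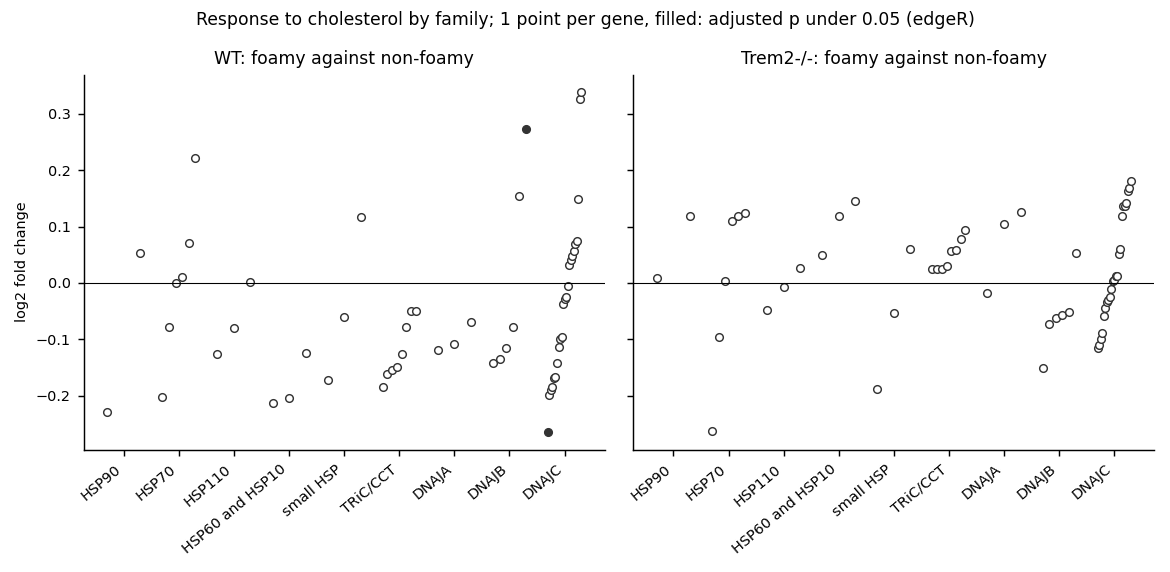
Log2 fold change of foamy against non-foamy cells for the same 57 genes by family, in WT (left) and Trem2-/- cells (right), with 1 point per gene. The 2 filled points, Dnajb14 at 0.27 and Dnajc21 at −0.27 in WT cells, passed adjusted p under 0.05, and the 8 TRiC/CCT points lie under 0 in WT and over 0 in Trem2-/- cells.

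Whether cholesterol acted differently in the 2 genotypes was tested as the difference between the responses. It passed for 2 of 62 chaperone genes, 1 higher and 1 lower in Trem2-/- cells, where 3.64% of all tested genes passed (1.99% higher, 1.64% lower). For Hspd1 the response in Trem2-/- cells was 0.36 above that in WT cells (s.e. 0.09, adjusted p = 0.0336), from −0.21 in WT and 0.15 in Trem2-/- cells. For Dnajb14 it was 0.34 below (difference −0.34, s.e. 0.09, adjusted p = 0.0304), from 0.27 in WT and −0.07 in Trem2-/- cells.

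Both differences kept their size and often lost their call. That of Hspd1 lay between 0.32 and 0.39 over all alternatives and was lost without WT foamy replicate 1 (adjusted p = 0.0584), WT non-foamy replicate 1 or 4, any of the 3 Trem2-/- non-foamy libraries, or Trem2-/- foamy replicate 1, 3 or 4, and with the replicate block (0.33, adjusted p = 0.0629). That of Dnajb14 lay between −0.38 and −0.30 and was lost without WT foamy replicate 2, any Trem2-/- non-foamy library, or Trem2-/- foamy replicate 1, 2 or 3 (adjusted p up to 0.0919), and with total counts alone (adjusted p = 0.0969). Hsp90aa1, with a difference of 0.35, just missed the threshold (adjusted p = 0.0517) and passed in 7 alternatives. Of the 62 genes, 28 had a negative value in WT and a positive one in Trem2-/- cells (45.2%, against 31.5% of all tested genes), and 11 the reverse; most of these values did not pass a test.

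Transcripts of partner proteins of HSP90 were mostly lower in Trem2-/- cells. Of 18 genes on the list of HSP90 co-chaperones, 2 were higher and 13 lower in media alone. In foamy cells 2 were higher and 7 lower (medians −0.32 without and −0.13 with cholesterol). The list includes Trap1, which is itself an HSP90, of mitochondria. Shares called were 83.3% and 50%, against 43.6% and 30.2% of all tested genes, which also hold for the lists that follow. The largest changes without cholesterol were those of the immunophilins Fkbp5 (−1.1, s.e. 0.11, adjusted p = 3.22e-08) and Fkbp4 (−0.83, adjusted p = 5.26e-09), of Ptges3, the cochaperone p23 (−0.83, adjusted p = 2.43e-09), and of the phosphatase Ppp5c (−0.72, adjusted p = 1.66e-07). Sugt1 was higher in both conditions (0.47, adjusted p = 0.000220 and 0.42, adjusted p = 0.000693).

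Co-chaperones of HSP70 (13 tested) had 6 lower and none higher in media alone, and 1 higher and 3 lower in foamy cells (medians −0.18 and −0.14). Their shares called, 46.2% and 30.8%, are near those of all tested genes. In media alone the exchange factor Hspbp1 (−0.68, adjusted p = 1.67e-05) and the ubiquitin ligase Stub1 (−0.55, adjusted p = 0.000173) changed most. In foamy cells Hspbp1 did not pass, and Stub1 was at −0.32 (adjusted p = 0.0146). Of 9 genes for prefoldin and other TRiC/CCT helpers, 1 was higher and 5 lower, then 2 higher and 2 lower (66.7% and 44.4% called, medians −0.26 and −0.01). Of 9 other genes of mitochondrial protein quality control, 1 was higher and 4 lower, then 1 higher and 2 lower (55.6% and 33.3% called, medians −0.12 and −0.11), and the one higher in both was Hscb, a J protein of iron-sulfur cluster assembly (0.63, adjusted p = 1.90e-05 and 0.44, adjusted p = 0.000980).

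Classical HSF1 targets, a list that contains several of the chaperones above, had 15 of 21 genes tested. In Trem2-/- cells 10 were lower and none higher in media alone, while 9 were lower and 1, Hspa8, was higher in foamy cells (66.7% called in each, medians −0.45 and −0.32). With the chaperone genes themselves removed, 5 of 8 tested targets were lower and none higher in each condition, and of the targets Fkbp4, Ahsa1, Stip1, Cacybp and Chordc1 are also on the list of HSP90 co-chaperones. Of 4 tested heat shock factor genes, Hsf1 itself was lower in both, at 17.3 against 20.7 CPM (−0.27, adjusted p = 0.0347) and 17.5 against 21.3 CPM (−0.29, adjusted p = 0.0202). These counts measure transcripts and not the activity of the factor.

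Of 12 ER chaperone genes, 2 were higher and 8 lower in Trem2-/- cells kept in media alone, and in foamy cells 2 were higher and 7 lower (83.3% and 75% called, medians −0.37 and −0.23). Sdf2l1, a partner of the ER HSP70, changed most (−1.09 and −0.63, adjusted p = 1.06e-10 and 2.25e-07). Of the 4 ER genes set aside by the choice of symbols, Hspa5, the ER HSP70 itself, was lower (−0.20, adjusted p = 0.00687 and −0.21, adjusted p = 0.00373), as was Dnajb11 (−0.57 and −0.43, adjusted p = 3.43e-05 and 0.000517). Dnajb9 was higher (0.45 and 0.31, adjusted p = 0.000646 and 0.0122), and Dnajc3 did not pass. Among the genes of these lists that are not among the 77, Sdf2l1 alone passed in the response of WT cells to cholesterol (−0.24, adjusted p = 0.0433), none passed in that of Trem2-/- cells, and the difference between the responses passed for Sdf2l1 (0.46, adjusted p = 0.0115) and Fkbp4 (0.39, adjusted p = 0.0279). The alternatives and the fits without a library were not run for list genes outside the 77.

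The values of genes with a heat shock element in the promoter window are given as a description, with no test. Of the 12 tested members with an element of 2 units, 4 were lower and none higher in Trem2-/- cells without cholesterol, with a median of −0.14. Of the 36 with a window and no element, 15 were lower and 10 higher, with a median of −0.24. With cholesterol the 12 had 3 lower and none higher (median −0.06), and the 36 had 9 lower and 6 higher (median −0.06). Of the 4 genes with 3 units, Hspd1 and Hsph1 were lower without cholesterol, and Hspe1 and Dnajb6 did not pass.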

How the data were processed

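Counts were deposited by the authors as 1 table of raw whole-number read counts per library, without normalization. According to the methods, they trimmed reads with Trimmomatic, aligned them with HISAT2 to GRCm38 and assigned them with featureCounts in the CHURP pipeline, from TruSeq libraries; the strand setting and the treatment of reads with several matches are not given in the sources used here. Here, libraries were scaled with TMM, genes were kept by filterByExpr with a minimum count of 10 (14237 genes), and all 15 libraries were fitted with 1 mean per group by glmQLFit and glmQLFTest (edgeR 4.0.16, R 4.3.3). P-values were adjusted by Benjamini and Hochberg over all tested genes, and genes were called under 0.05. CPM are TMM-scaled, s.e. is the log2 fold change divided by the root of F, and lengths, overlaps and shared stretches come from GENCODE M21.

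The chaperone genes, the gene lists and the rule for named genes were chosen with earlier results of these data known. The rule took 16 core genes in every library, the 5 largest increases and decreases per comparison among called genes of at least 1 CPM, other members within their family, and up to 5 genes per list. Alternatives were DESeq2 1.42.0, RLE factors, total counts alone, no filter, a minimum of 10 counts in each library, fits of the compared groups alone, a replicate block, adjusted p under 0.01, and each library left out. The fit was tested on simulated data. Other experiments of the study were not used here.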

Additional observations from a re-analysis of the deposited data

Results flagged for a closer look

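In groups of 4 libraries, a library was taken to stand apart when its gap to the nearest other library, divided by the range of the group, was over Dixon's 95% critical value. Of 72 pairs of gene and group (24 genes, 3 groups), 3 met this, and chance gives about 5%. Hspe1 stood at 529 CPM in WT non-foamy replicate 3, with 398 to 401 CPM in the other 3 libraries. Cct2 stood at 546 CPM in the same library, with 493 to 500 in the others, and at 451 CPM in WT foamy replicate 1, with 504 to 505 in the others.

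The response to cholesterol differed between the genotypes, by the test of the difference itself, for Hspd1 (0.36, adjusted p = 0.0336, edgeR) and for Dnajb14 (−0.34, adjusted p = 0.0304).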

How the results depend on the processing

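The replicate numbers did not pair the libraries: deviations of same-numbered libraries correlated between −0.08 and 0.14. With the numbers as a replicate block, 1 chaperone gene was called in the WT response (2 without it), 0 in the Trem2-/- response, 39 and 25 in the genotype comparisons (40 and 28 without it) and 1 in the difference of responses (2 without it; Hspd1 was lost).

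The WT response called 7 chaperone genes with DESeq2, 5 with total counts alone, 4 with no filter, and 0 with only the groups compared or at an adjusted p under 0.01; leaving out 1 library gave 0 to 4. The difference of responses called 5 with DESeq2, 5 with total counts alone, 4 with no filter and 0 at an adjusted p under 0.01; leaving out 1 library gave 0 to 4. The genotype comparison with cholesterol called 17 at an adjusted p under 0.01 (8 higher, 9 lower) and 20 to 27 with 1 library left out, and that without cholesterol 32 to 39. The Trem2-/- response called 0 in all its alternatives. The difference of responses was not run with only the groups compared, since it uses all groups. The causes of these changes were not tested.

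Of the calls, 29 of 40 without and 17 of 28 with cholesterol held in every fit that left out 1 library. With total counts alone Dnajc7 (0.00 in media alone) came to −0.14 and Cct2 (0.03 with cholesterol) to −0.10.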
